A study of Homo sapiens with 6 samples.

Results

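Mitotic kinesins and spindle assembly factors were examined as a family of 10 genes: the motors Kif11, Kif20a, Kif20b, Kif23, Kif2c and Kif4, and the non-motor factors Tpx2, Nusap1, Prc1 and Hmmr. They were chosen by Ensembl mouse gene ID from a table of 34866 IDs, with earlier results of these data known. All 10 were found, and all 10 were among the 11400 IDs that passed the filter on low counts. RNA sequencing had been done on 3 samples given an adenovirus carrying a short hairpin RNA (shRNA) against GOLPH3 and 3 samples given an adenovirus carrying a control shRNA. All samples are labelled as MKN45, a human gastric adenocarcinoma line that the study describes as negative for the mucin MUC6, grown in the same medium with serum and antibiotics. Every group had therefore received an adenovirus and a hairpin. The study asked how lowering GOLPH3, which sits on the Golgi membrane and helps to keep glycosyltransferases there, is associated with gene expression in these cells.

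The labels do not say whether the 3 samples of a group were separate cultures, or whether the numbers of the GOLPH3 samples stand for different hairpins, so the p-values measure only the spread between these samples. The counts are listed by mouse gene IDs and the submitters' notes name the mouse build mm10, although the labels give human cells. Human reads assigned to mouse gene models and reads of mouse cells cannot be told apart from this table. A value is therefore read below as a difference of the same ID between libraries, and not as the abundance of its RNA. Mouse symbols are used for the IDs, and human symbols where a human sequence is shown. The level of GOLPH3 and the defining markers of gastric epithelium were not analysed here, since no symbols for their IDs were at hand. Library totals were 4977645, 5496890 and 5676169 estimated counts with GOLPH3 shRNA, against 6287037, 7355140 and 6440385 with control shRNA. All GOLPH3 shRNA libraries were thus smaller than any control library.

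The mitotic spindle is built from microtubules that are nucleated near chromosomes and at poles, then sorted, bundled and shortened by motors and crosslinking proteins. Kinesins of this family walk along microtubules or take them apart at their ends, and their loss commonly gives spindles with one pole, misaligned chromosomes or failed cytokinesis. Most of these genes are transcribed in G2 and M, and in human and mouse cells many are repressed in quiescence by the DREAM complex and activated by B-MYB and FOXM1 through a promoter element called CHR (cell cycle genes homology region). NF-Y, which binds CCAAT boxes, is the other factor commonly tied to such promoters.

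Because many such genes are known to be controlled in this way, the promoters are shown first. The RefSeq table (GRCh38.p14, human) held a promoter for 9 of the 10 genes, all but TPX2. Each promoter was 300 bases long, with 250 bases before the annotated start and 50 from it on. The promoters are those of the human counterparts of the counted IDs, with KIF4A for Kif4. The 4 printed here belong to the genes whose counts were lowest relative to control, KIF20A, HMMR and KIF11, and to NUSAP1, the member with a positive fold change. They lie at chr5:138178862-138179161, chr5:163460382-163460681, chr10:92592880-92593179 and chr15:41332631-41332930, all on the plus strand. Capitals mark the letters searched for on both strands. The first CHR form searched was TTTGAA, which reads TTCAAA on the opposite strand. The second form, TTTAAA, reads the same on both strands. The CCAAT box reads ATTGG on the opposite strand. The E2F forms searched were TTTCCCGC in the first place and, as an alternative form, TTTGGCGC.
KIF20A: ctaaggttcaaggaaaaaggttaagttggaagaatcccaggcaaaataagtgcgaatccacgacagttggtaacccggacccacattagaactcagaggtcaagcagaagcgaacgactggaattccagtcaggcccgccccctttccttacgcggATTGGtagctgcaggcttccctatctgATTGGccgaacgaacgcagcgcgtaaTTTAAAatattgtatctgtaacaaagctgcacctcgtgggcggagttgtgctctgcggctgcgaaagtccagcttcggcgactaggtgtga
HMMR: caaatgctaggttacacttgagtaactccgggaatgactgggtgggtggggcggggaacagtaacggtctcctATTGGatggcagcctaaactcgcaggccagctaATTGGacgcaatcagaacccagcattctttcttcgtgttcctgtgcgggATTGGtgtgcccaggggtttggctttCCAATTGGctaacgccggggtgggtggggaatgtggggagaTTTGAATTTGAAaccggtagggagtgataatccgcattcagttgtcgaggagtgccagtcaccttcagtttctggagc
KIF11: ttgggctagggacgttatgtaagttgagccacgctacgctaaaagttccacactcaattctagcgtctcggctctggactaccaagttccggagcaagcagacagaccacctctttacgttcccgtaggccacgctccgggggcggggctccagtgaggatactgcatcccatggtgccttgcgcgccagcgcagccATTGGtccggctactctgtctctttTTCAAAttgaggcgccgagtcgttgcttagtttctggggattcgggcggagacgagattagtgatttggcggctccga
NUSAP1: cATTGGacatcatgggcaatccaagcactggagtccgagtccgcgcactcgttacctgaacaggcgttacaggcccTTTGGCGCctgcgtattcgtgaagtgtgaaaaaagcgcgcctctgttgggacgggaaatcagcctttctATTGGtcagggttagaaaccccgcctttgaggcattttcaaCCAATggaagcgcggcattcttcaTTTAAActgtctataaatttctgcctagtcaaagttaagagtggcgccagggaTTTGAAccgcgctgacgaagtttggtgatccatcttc

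A CHR form stood in all 9 promoters, against 24% of the 35116 promoters of that length in the table and 20.2% of the 22199 that belong to protein-coding genes. The TTTGAA form was in 7 of the 9 and in 15.2% of all promoters, and TTTAAA was in 4 of the 9 and in 12.2%. CCAAT was in 8 of the 9, against 34.6% of all promoters. Of the 9, KIF2C was the promoter without it. Both a CHR form and CCAAT stood in 8 of the 9, against 9.27% of all promoters. The E2F form TTTGGCGC was found in NUSAP1 alone among the 9, and in 0.652% of all promoters. TTTCCCGC was found in none of the 9 (1.63% of all promoters). These are matches of letters in a fixed window, and no binding was measured.

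The first base of a CHR form lay at -211 and -55 in KIF23, -41 in KIF20A, -40 and 14 in NUSAP1, -34 in KIF4A, -28 in KIF11, -28 and -22 in HMMR and -20 in PRC1, counted from the annotated start. In KIF2C the form lay across the start, from -3. In KIF20B it lay after the start, at 25 and again at 31, as directly repeated letters like those of HMMR. In every promoter with CCAAT, at least one copy lay upstream of a CHR form. HMMR held 5 CCAAT letters, of which a neighbouring pair on opposite strands shares bases. NUSAP1 carried 3 copies of CCAAT, both CHR forms and the E2F letters.

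**Figure D1:**
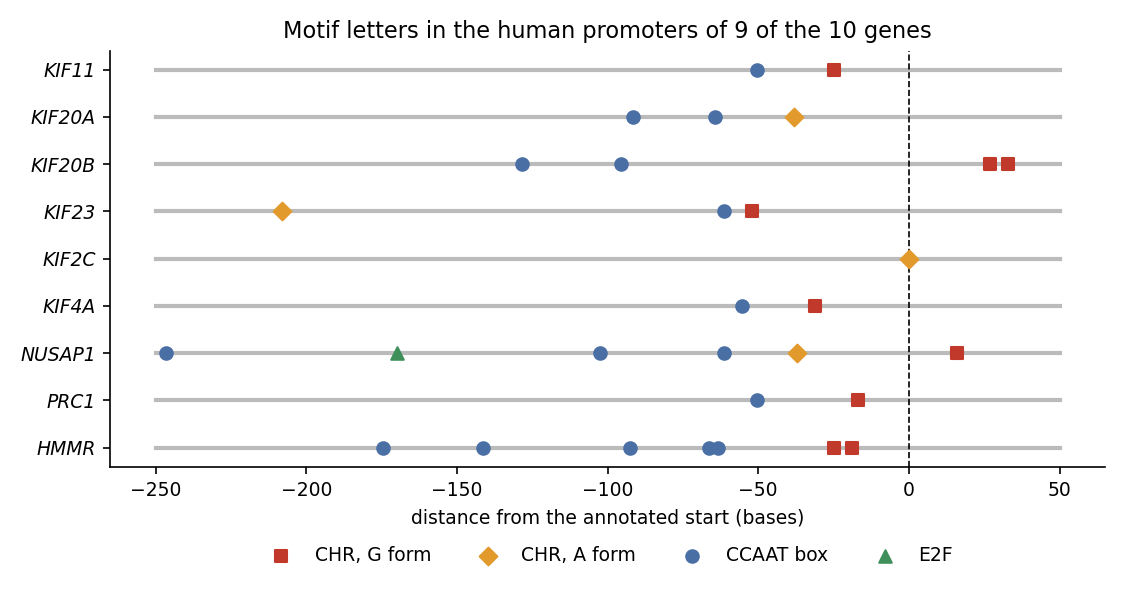
Positions of CHR, CCAAT and E2F letters in the human promoters of 9 of the 10 genes, one line per gene, with the distance from the annotated start in bases on the x axis and the start at the dashed line. A CHR form stands in all 9 promoters, and CCAAT in 8, all but KIF2C. No promoter was at hand for TPX2, which is not shown.

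Most of the family was lower in the GOLPH3 shRNA samples. Of the 10 genes, 8 fell, 0 rose and 2 (Prc1 and Nusap1) had an adjusted p above 0.05 (quasi-likelihood test of edgeR, adjusted after Benjamini and Hochberg over all 11400 IDs). Over all IDs tested, 17.8% were called lower and 16.1% higher. At an unadjusted p below 0.05, which 43.7% of all IDs reached counting both directions together, 0 members were higher. The share of all IDs that were higher at this p was not computed. DESeq2 and limma-voom also called 0 members higher, and 1736 and 1872 of all IDs higher. With 16.1% of all IDs called higher in the main fit, 0 of 10 is not read as a result about the members. The median log2 fold change of the 10 genes was -0.86, against 0.002 for all IDs. Values of the 3 GOLPH3 shRNA libraries lay wholly below the 3 control values for 9 of the 10 genes, where 24.2% of all IDs were separated in that way. At least 2-fold falls were called in 3 of the 10, Kif20a, Hmmr and Kif11, against 2.91% of all IDs. The members were chosen with earlier results of these data known, so the contrasts with all IDs are descriptions and were not tested. With every library thinned to the smallest total, 8 were again lower. In these bulk samples, fewer cells in mitosis and less of these RNAs per cell cannot be told apart.

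**Figure D2:**
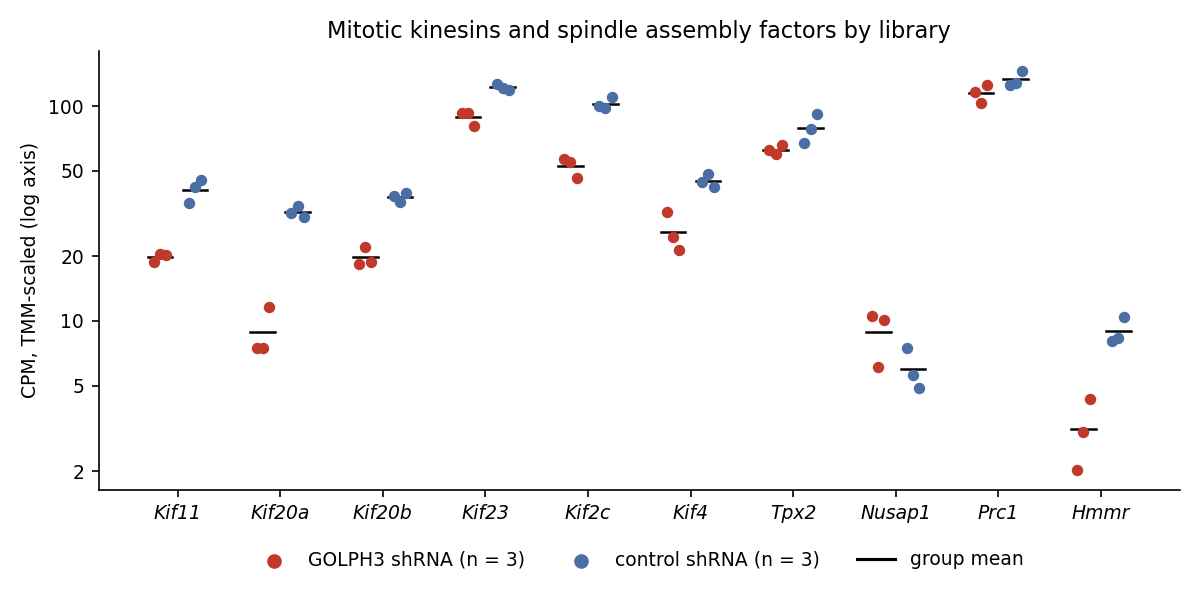
Counts scaled to a common library total (CPM with TMM factors, log axis) of the 10 genes in each library, with GOLPH3 shRNA in red, control shRNA in blue and black bars for group means (n = 3 each). For 9 genes all red points lie below all blue points, narrowly for Prc1, and for Nusap1 the groups overlap.

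As a sum, the 10 genes took 418, 395 and 404 CPM in GOLPH3 shRNA libraries 1, 2 and 3, against 584, 599 and 640 CPM in control libraries 1, 2 and 3. CPM are counts scaled to a common library total. The sum in the GOLPH3 shRNA libraries was 66.8% of the control mean, from 406 ± 11.7 CPM against 608 ± 28.7 CPM (SD, n = 3 each). Without Prc1, the member with the most counts, it was 61.3%. Within each GOLPH3 shRNA library 9 of the 10 genes lay below the lowest control library, so no single library carried the difference.

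Kif11 (ENSMUSG00000012443.3) encodes the motor also known as Eg5, which slides antiparallel microtubules apart and keeps the poles separated. It had 18.9, 20.4 and 20.2 CPM with GOLPH3 shRNA, against 35.2, 41.9 and 45.2 CPM with control shRNA. The groups were far apart, and the GOLPH3 shRNA values were close together. Kif11 fell 2.05-fold (log2 fold change -1.04, SE 0.13, edgeR adjusted p = 2.44e-05). Its estimates had a fractional part in all 6 libraries, which can arise where reads are divided between gene models (the sources used here do not give the method).

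The kinesin-6 motors act at the spindle midzone and in cytokinesis, and they were lower by unequal amounts. Kif20a (ENSMUSG00000003779.15) encodes MKLP2, which brings the chromosomal passenger complex to the midzone. It had 7.5, 7.52 and 11.6 CPM with GOLPH3 shRNA, from 37, 42 and 64 counts, against 31.9, 34.1 and 30.6 CPM with control shRNA, from 205, 250 and 194 counts. All 3 GOLPH3 shRNA libraries were far below the controls, and the third was the highest of them. Kif20a fell 3.62-fold (log2 fold change -1.86, SE 0.18, edgeR adjusted p = 1.85e-06), the largest fall among the 10 genes and the 55th lowest log2 fold change of the 11400 IDs.

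Kif20b (ENSMUSG00000024795.11), also called MPP1, is needed for the completion of cytokinesis. It had 18.4, 22 and 18.8 CPM with GOLPH3 shRNA, against 38.3, 35.6 and 39.4 CPM with control shRNA. The groups did not overlap, and each was tight. The fall was 1.91-fold (log2 fold change -0.93, SE 0.13, edgeR adjusted p = 5.27e-05). Kif23 (ENSMUSG00000032254.10) encodes MKLP1, the motor subunit of centralspindlin. It had 92.6, 92.9 and 81.1 CPM with GOLPH3 shRNA, against 127, 121 and 119 CPM with control shRNA. The separation was again complete, but the fall was smaller, at 1.38-fold (log2 fold change -0.46, SE 0.08, edgeR adjusted p = 0.000504).

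Kif2c (ENSMUSG00000028678.13) encodes MCAK, which does not walk but removes tubulin from microtubule ends and helps to correct faulty attachments at kinetochores. It had 56.8, 55.1 and 46.1 CPM with GOLPH3 shRNA, against 100, 97.9 and 110 CPM with control shRNA. Every GOLPH3 shRNA value was below every control value by a wide margin. Kif2c fell 1.95-fold (log2 fold change -0.96, SE 0.1, edgeR adjusted p = 3.22e-06). Kif4 (ENSMUSG00000034311.3) is a chromokinesin that works on chromosome arms and, with PRC1, limits the length of midzone microtubules. Its values were 32, 24.5 and 21.3 CPM with GOLPH3 shRNA, against 44.2, 48.3 and 42.2 CPM with control shRNA. The groups did not overlap, although the GOLPH3 shRNA values were more spread. Kif4 fell 1.74-fold (log2 fold change -0.80, SE 0.14, edgeR adjusted p = 0.000387).

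Among the non-motor factors the values differed more from gene to gene: Hmmr and Tpx2 fell, and Prc1 and Nusap1 did not pass the test. All 6 motors fell. The difference between motors and other factors was not tested. Hmmr (ENSMUSG00000020330.16), also called RHAMM, binds hyaluronan outside the cell and spindle microtubules inside it, where it helps TPX2 to act at the poles. It had 2.03, 3.04 and 4.34 CPM with GOLPH3 shRNA, from 10, 17 and 24 counts, against 8.1, 8.32 and 10.4 CPM with control shRNA, from 52, 61 and 66 counts. The highest GOLPH3 shRNA value was well below the lowest control value, but the counts were few and the error wide. Hmmr fell 2.82-fold (log2 fold change -1.49, SE 0.32, edgeR adjusted p = 0.00179).

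Tpx2 (ENSMUSG00000027469.16) promotes microtubule nucleation near chromosomes under the control of Ran and activates Aurora A kinase. It had 62.6, 60 and 65.6 CPM with GOLPH3 shRNA, against 67.1, 78.1 and 92 CPM with control shRNA. The groups did not overlap, but the lowest control library came close to the GOLPH3 shRNA libraries. Tpx2 fell 1.26-fold (log2 fold change -0.33, SE 0.11, edgeR adjusted p = 0.0291). This call was lost when GOLPH3 shRNA library 1 (adjusted p = 0.0806), GOLPH3 shRNA library 2 (0.0814), control library 2 (0.0609) or control library 3 (0.16) was left out of the edgeR fit. Without control library 3 its log2 fold change was -0.22.

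Prc1 (ENSMUSG00000038943.16) crosslinks antiparallel microtubules and thereby forms the spindle midzone. It had 116.4, 103 and 124.9 CPM with GOLPH3 shRNA, against 125, 127.6 and 145.8 CPM with control shRNA. The highest GOLPH3 shRNA library and the lowest control library were almost equal. The log2 fold change was -0.21 (SE 0.09, 95% interval -0.40 to -0.02, edgeR adjusted p = 0.0832), which did not pass the test. It passed without GOLPH3 shRNA library 3 (-0.28, adjusted p = 0.042), the library with the highest of the GOLPH3 shRNA values. Tpx2 and Prc1 had fractional estimates in all 6 libraries.

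Nusap1 (ENSMUSG00000027306.15) bundles microtubules around chromosomes and was the only member with a positive fold change. It had 10.5, 6.09 and 10.1 CPM with GOLPH3 shRNA, from 52, 34 and 56 counts, against 7.47, 5.59 and 4.89 CPM with control shRNA, from 48, 40.8 and 31 counts. The second GOLPH3 shRNA library lay within the control range, so the groups overlapped. The log2 fold change was 0.57 (SE 0.29, 95% interval -0.04 to 1.18, edgeR adjusted p = 0.141), which did not pass the test. The interval leaves out falls of the size seen in the 6 motors. Relative to the mean log2 CPM of the other 9 genes in the same library, Nusap1 stood at -1.33, -2.11 and -1.48 with GOLPH3 shRNA, against -2.67, -3.13 and -3.40 with control shRNA. The distance from the other 9 genes was smaller in each GOLPH3 shRNA library than in all controls. The lower values of those 9 genes narrow this distance by themselves, so it is not a separate result about Nusap1. In GOLPH3 shRNA library 2, Nusap1 was only 0.04 above its own control mean (log2 CPM). No test was made, since the gene was singled out after its values were seen.

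**Figure D3:**
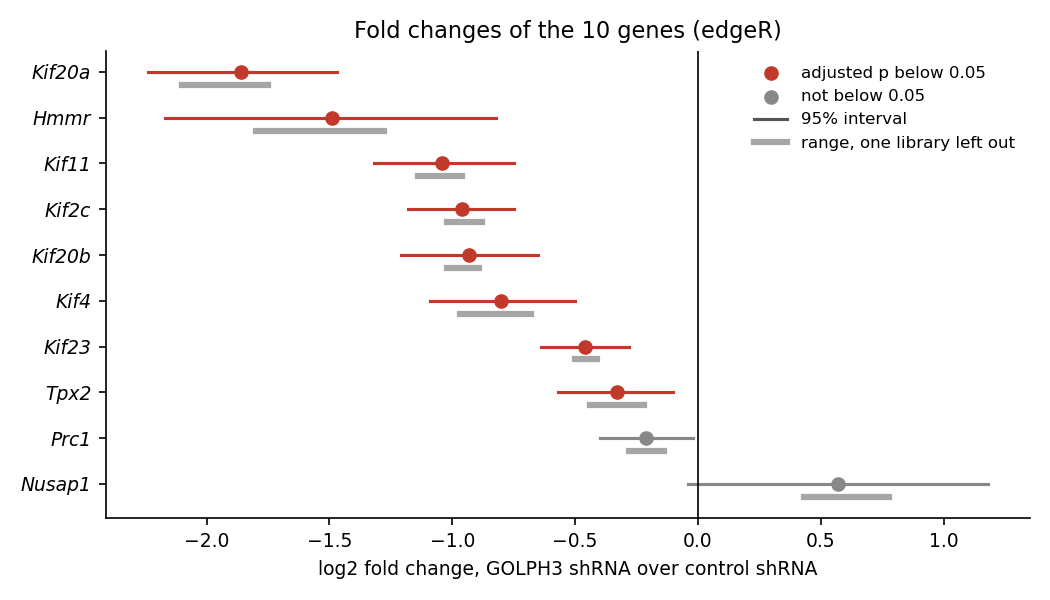
Log2 fold change of GOLPH3 shRNA over control shRNA for each of the 10 genes with its 95% interval, and in pale bars the range when each of the 6 libraries is left out in turn. The 8 genes in red passed the test, from -1.86 for Kif20a to -0.33 for Tpx2, and Prc1 and Nusap1 in grey did not.

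The members ranged widely among all IDs tested. By log2 fold change, Kif20a ranked 55 from the lowest of 11400, Hmmr 119, Kif11 356, Kif2c 447, Kif20b 498 and Kif4 744. Kif23 ranked 1950, Tpx2 2751 and Prc1 3686, and Nusap1 stood near the other end at 10169. Low-count IDs have wider scatter, so a rank by fold change favours them at both ends. By unadjusted p the smallest value among the members was that of Kif20a, ranked 112, and Kif2c followed at 160. Estimates were whole numbers, within 1e-06, in all 6 libraries for 5 of the 10 genes, Kif20a, Kif20b, Kif23, Kif2c and Hmmr. Each of these fell, and so did Kif11, Kif4 and Tpx2, which had fractional estimates. Prc1, with fractional estimates in all 6 libraries, and Nusap1, with a fractional estimate in 1 library, were not called. The share of lower calls among all whole-number IDs was not computed.

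**Figure D4:**
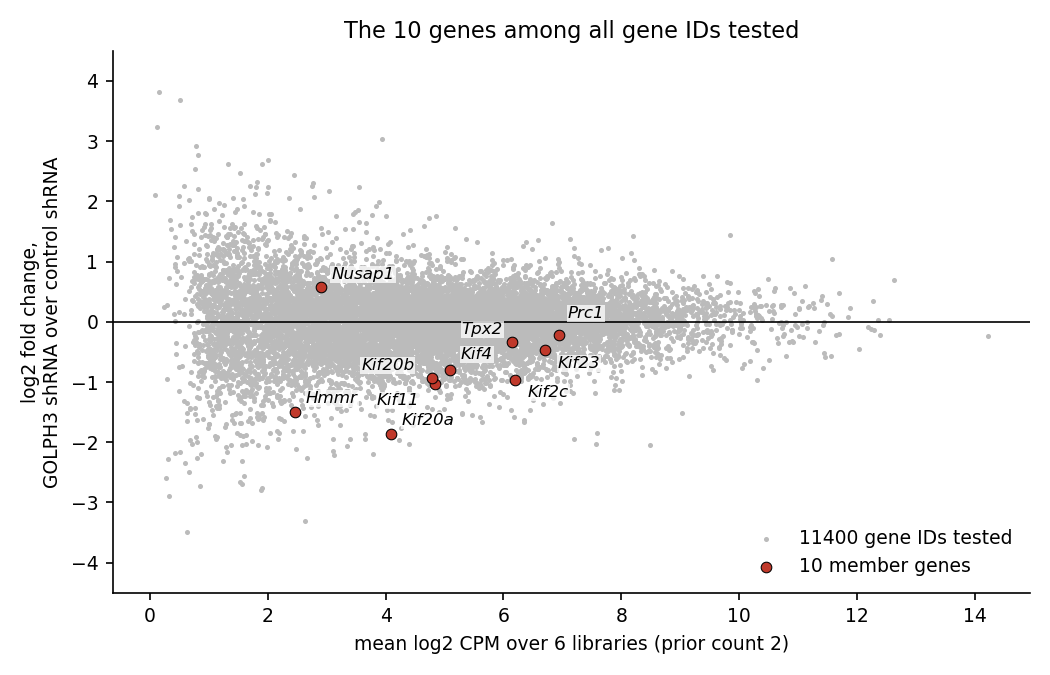
Log2 fold change of GOLPH3 shRNA over control shRNA against mean log2 CPM for the 11400 IDs tested (grey; 3 IDs lie outside the plotted range) and the 10 genes (red). Kif20a, Hmmr, Kif11, Kif2c and Kif20b lie in the lower part of the cloud at their level, Prc1 and Tpx2 lie within it, and Nusap1 lies above 0.

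Ratios between 3 pairs of members are given as a description with no test, since the pairs were chosen after the values were seen. They are ratios of RNA counts for proteins known to work together or, for the last pair, of the same motor class, each taken within a library on the log2 CPM scale (prior count 2). PRC1 recruits KIF4 to the midzone. The Prc1 to Kif4 ratio was 1.85, 2.05 and 2.53 with GOLPH3 shRNA, against 1.49, 1.40 and 1.78 with control shRNA. TPX2 binds KIF11 on spindle microtubules. The Tpx2 to Kif11 ratio was 1.71, 1.54 and 1.68 with GOLPH3 shRNA, against 0.92, 0.90 and 1.02 with control shRNA. Both ratios were higher with GOLPH3 shRNA in each library than in all controls, by a mean of 0.59 and 0.70.

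Kif20a and Kif20b are both kinesin-6 motors. The Kif20a to Kif20b ratio was -1.26, -1.51 and -0.68 with GOLPH3 shRNA, against -0.26, -0.06 and -0.36 with control shRNA, a mean difference of -0.92. The spread within a group was widest for Kif20a to Kif20b with GOLPH3 shRNA (SD 0.42) and narrowest for Tpx2 to Kif11 (SD 0.09 with GOLPH3 shRNA and 0.07 with control shRNA).

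**Figure D5:**
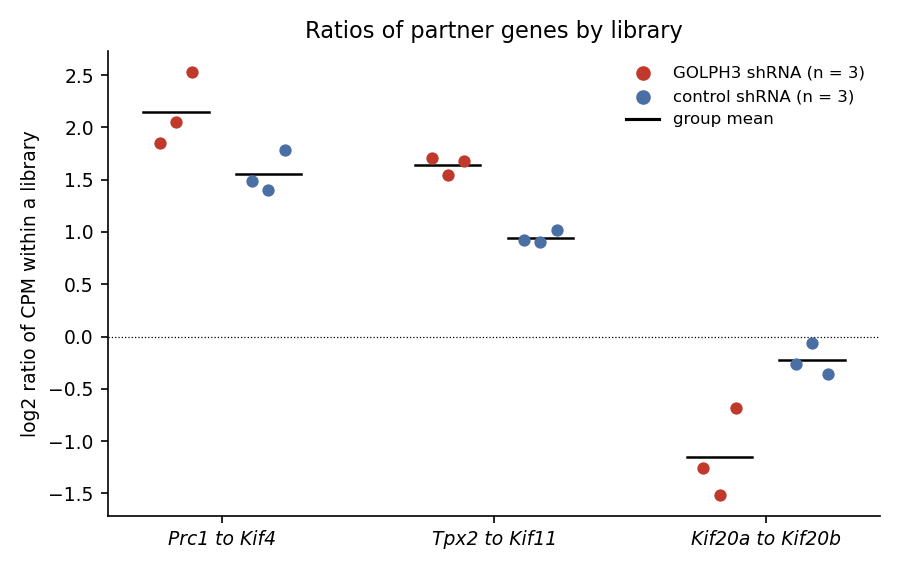
Log2 ratio of the CPM of partner genes within each library, with GOLPH3 shRNA in red, control shRNA in blue and black bars for group means (n = 3 each). The groups are separate for all 3 ratios, with means of 2.15 against 1.56 for Prc1 to Kif4, 1.64 against 0.95 for Tpx2 to Kif11 and -1.15 against -0.23 for Kif20a to Kif20b. The pairs were chosen after the values were seen, and each difference restates the unequal fold changes of its genes.

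An outside list gave these genes a phase of the cell cycle. The scran package carries pairs of mouse genes that were picked to tell the phases of embryonic stem cells apart. Of the 10 genes, 7 were among the 667 genes of these pairs, and 6 of the 7 were assigned to G2/M: Kif11, Kif23, Kif2c, Tpx2, Nusap1 and Prc1. Kif20b was assigned to no phase, and Kif20a, Kif4 and Hmmr were in no pair. Of these 6, Kif11, Kif23, Kif2c and Tpx2 fell, and Nusap1 and Prc1 were not called. Of 124 other G2/M IDs tested, 45 fell (36.3%), 19 rose and 60 did not pass, with a median log2 fold change of -0.24. The G1 IDs had 45 of 174 lower (25.9%), 32 higher and a median of -0.02. The S IDs had 29 of 111 lower (26.1%), 16 higher and a median of -0.07. All 3 phase lists thus held a larger share of lower calls than all IDs (17.8%). Each list also held higher calls (32 of 174 G1 IDs, 16 of 111 S IDs and 19 of 124 G2/M IDs), where 16.1% of all IDs were called higher. The median of the 10 spindle genes, -0.86, was lower than that of these IDs, and the difference was not tested. Other spindle, kinetochore and transport-kinesin lists were not analysed here, because their IDs could not be matched to symbols.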

How the data were processed

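The authors deposited one table of estimated counts per mouse Ensembl gene ID, unscaled, with 1 column per library. The build is mm10 per the submitters' processing notes. RNA was column-purified and made into libraries with a stranded messenger RNA kit, per the labels' protocols. Aligner, quantifier, annotation and strand setting: not given in the sources used here. Library totals were 4977645 to 7355140.

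Estimated counts were rounded, IDs were kept by filterByExpr, and groups were compared with edgeR 4.0.16 (R 4.3.3) by its quasi-likelihood test with TMM factors, adjusted after Benjamini and Hochberg over all IDs kept. Standard errors are the log2 fold change divided by the root of F. Phase pairs came from scran 1.30.0, where a gene took the phase in which it was the higher member most often, net of the reverse (minimum 10). The fit was tested on simulated data. Alternatives were DESeq2 1.42.0, limma-voom (limma 3.58.1), other factors and filters, a replicate block, libraries left out and thinned libraries. All 10 members are named. The members, lists and motifs were chosen with earlier results of these data known. Lists named by symbol could not be matched to IDs and were not analysed here.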

Additional observations from a re-analysis of the deposited data

How the results depend on the processing

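Across 15 alternatives per gene, no member changed direction, and Kif11, Kif20a, Kif20b, Kif23, Kif2c, Kif4 and Hmmr were called lower in all 15. Between 7 and 9 members were called lower, and 0 higher, when libraries were left out in turn. Of all IDs, those fits called 1644 to 1929 lower and 1425 to 1665 higher. The other alternatives gave 8, except that 9 were lower with no low-count filter, where Prc1 passed (-0.23, edgeR adjusted p = 0.0449). With no low-count filter, 2222 of all IDs were lower and 1922 higher. The alternatives that gave 8 called 1830 to 2045 of all IDs lower and 1736 to 1952 higher. These are counts, not shares, since the number of IDs tested in each fit was not recorded. Tpx2 ranged from -0.44 to -0.22 (adjusted p 0.0048 to 0.16), and Nusap1 from 0.43 to 0.78 (adjusted p 0.0504 to 0.36), never called. With libraries thinned to the smallest total, an alternative added after the data were seen, 8 members were lower. The replicate block gave 8 lower, with 2045 of all IDs lower and 1842 higher, and changed no member's call. The titles do not say that the numbers pair the samples, so they were not taken as pairs. Deviations of same-numbered libraries correlated at 0.032, 0.090 and 0.044, against -0.086 to 0.037 for unlike numbers, which does not settle the question. Without Prc1, which took the most counts, the summed CPM was 61.3% of control in place of 66.8%, since Prc1 was among the least lowered, and 66.3% on raw totals. Lists by symbol were not run under any setting. Few counts limit Hmmr and Nusap1.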
